A study of Mus musculus with 53 samples.

Results

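The genes described here are 10 components of the bone morphogenetic protein (BMP) pathway, chosen by symbol among the 55421 gene identifiers of a mouse intestinal RNA-seq table: the ligands Bmp2, Bmp4 and Bmp7, the receptors Bmpr1a and Bmpr2, the secreted antagonist Grem1, and the target genes Smad6, Id1, Id2 and Id3. Each of the 10 symbols matched 1 row, and each gene passed the low-count filter in every comparison. RNA of whole tissue was sequenced from 53 mice in 11 groups, and each group was set against its own wild-type (WT) mice. Every mouse, WT included, carried VilCreER, a Cre recombinase driven by a villin promoter in intestinal epithelium and activated by tamoxifen, so that the deletions and the Braf allele are epithelial while the counts come from all cells of the tissue.

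Groups of the small intestine were VilCreER+ APCfl/fl mice at day 4 after induction (Apcfl/fl, n = 10) with WT mice at day 4 (n = 6), and primary tumours of VilCreER+ Apcfl/+ mice (n = 5) with WT small intestine (n = 3). Proximal colon gave primary tumours of VilCreER+ BrafV600E/+ Alk5fl/fl mice (BA, n = 4) with WT proximal colon (n = 3), and tissue at day 30 after induction from WT (n = 4), VilCreER+ Alk5fl/fl (A, n = 4) and BA mice (n = 5). Alk5 is Tgfbr1, the type I receptor for TGFβ. At day 30 there were also BA mice that drank vancomycin at 500 mg/L with metronidazole, neomycin trisulphate and ampicillin at 1 g/L each (n = 5), and A mice that drank sulindac at 0.4 g/L during the first 14 days (n = 4). The day-30 WT mice drank neither drug, and they serve in 4 comparisons. The WT small intestine and Apcfl/+ tumour mice are labelled inbred C57BL6/J, and all other groups mixed C57BL/6J N6.

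BMP ligands are secreted dimers that bind a pair of type I and type II serine/threonine kinase receptors, which phosphorylate SMAD1, SMAD5 and SMAD9. These enter the nucleus with SMAD4 and induce the ID genes, whose products hold basic helix-loop-helix factors in inactive dimers, and Smad6, a feedback inhibitor. In the intestine BMP activity is low at the crypt base, where stromal antagonists such as gremlin 1 trap the ligands, and high towards the differentiated surface.

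Reads counted on genes ran from 516985 to 32824795 per library. Apcfl/fl replicate 1 had the 516985 reads, at which a floor of 3 counts is 5.80 CPM, and it held 2 counts each of Bmp2 and Grem1. Tgfbr1, whose floxed exons are deleted only in epithelium, read 70.8 to 172 CPM in BA tumours against 47.7 to 54.7 in WT proximal colon, and 33.4 to 63.5 in BA and A mice at day 30 against 35.2 to 68.2 in WT. Apc read 34.2 CPM in Apcfl/fl replicate 8 and 125 to 174 in the other libraries of that group. Those other libraries all lay above the WT range at day 4, 64.0 to 97.3. Whole-gene counts thus do not show either deletion. Apcfl/fl replicate 8 was also the lowest of its group for Tgfbr1, at 23.1 CPM against at least 36.8. For Braf it read 11.7 against at least 32.2. BA tumour replicate 2 had 11.7% mitochondrial reads against 2.12% to 2.59% in the other 3 tumours. Small-intestinal marker genes summed to 21560 to 37060 normalised CPM in WT small intestine, to 6758 to 11580 in 4 Apcfl/+ tumours and to 193.9 in the remaining one, replicate 2. Colon markers summed to 512.4 in that tumour, 54.8 to 83.6 in the other 4 and 206.5 to 217.3 in WT small intestine. They summed to 12180 to 24990 in WT proximal colon and to 1098 to 5155 in BA tumours. BA tumour replicate 2 had small-intestinal markers at 2408 against 501 to 757 in the other 3. The Y-linked gene Ddx3y was over 10 CPM in 3 of 4 BA tumours, 0 of 3 WT proximal colon libraries, 1 of 5 Apcfl/+ tumours and 3 of 3 WT small intestine libraries. At day 4 it was over 10 CPM in 4 of 10 Apcfl/fl and 4 of 6 WT libraries. The sexes were thus unbalanced in both tumour comparisons and at day 4, and their part was not tested. BA tumour replicate 1 read 0.153 CPM for Ddx3y, and the WT proximal colon libraries read 0 to 0.185. Gm13394 read 68.4 to 222 CPM in every BA and A library at day 30 and 0.430 to 0.797 in WT at day 30. It read 0.490 to 1.90 in Apcfl/+ tumours against 45.5 to 103 in WT small intestine. In BA tumours it read 3.83 to 60.6 against 1.02 to 1.31 in WT proximal colon. At day 4 it read 0 to 0.968 in Apcfl/fl replicates 1 to 4 and 69.7 to 224 in replicates 5 to 10. The WT replicates 1 to 3 of day 4 read 0.521 to 1.44, and replicates 4 to 6 read 54.0 to 126. Its part in these comparisons was not tested.

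On GRCm38, Bmp2 (ENSMUSG00000027358) lies at chr2:133552159-133562885, Bmp4 (ENSMUSG00000021835) at chr14:46383520-46390669 and Bmp7 (ENSMUSG00000008999) at chr2:172868012-172940321. The receptor genes are at chr14:34410734-34503341 (Bmpr1a, ENSMUSG00000021796) and chr1:59763400-59879014 (Bmpr2, ENSMUSG00000067336), and Grem1 (ENSMUSG00000074934) is at chr2:113746164-113758646. Of the targets, Smad6 (ENSMUSG00000036867) lies at chr9:63953076-64022059, Id1 (ENSMUSG00000042745) at chr2:152736251-152737410, Id2 (ENSMUSG00000020644) at chr12:25093799-25097140 and Id3 (ENSMUSG00000007872) at chr4:136143497-136145755. Reads are summed over the exons of each gene.

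Promoter sequences of 280 bases (250 before the transcription start to 30 after it, RefSeq, GRCm38.p6) were found for 7 of the 10 genes. None was found for Bmp2, Bmp7 and the target Id1. Those of Grem1, Smad6, Id2 and Id3 are shown because they are the antagonist and the targets with a sequence, whose changes differed between the 2 tumour models. Capitals mark the letters GGCGCC, the GC-rich element bound by BMP-activated SMADs, GTCTAGAC, the palindromic SMAD element, and GTCTG or CAGAC, the short SMAD box on either strand. The palindrome holds neither form of the short box.
Grem1 promoter, chr2:113758619-113758898, minus strand: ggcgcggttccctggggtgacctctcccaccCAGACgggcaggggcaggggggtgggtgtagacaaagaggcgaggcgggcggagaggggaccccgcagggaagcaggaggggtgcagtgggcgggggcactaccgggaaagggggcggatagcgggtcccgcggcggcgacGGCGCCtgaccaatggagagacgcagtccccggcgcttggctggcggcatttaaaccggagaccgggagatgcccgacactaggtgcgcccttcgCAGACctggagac
Smad6 promoter, chr9:64022030-64022309, minus strand: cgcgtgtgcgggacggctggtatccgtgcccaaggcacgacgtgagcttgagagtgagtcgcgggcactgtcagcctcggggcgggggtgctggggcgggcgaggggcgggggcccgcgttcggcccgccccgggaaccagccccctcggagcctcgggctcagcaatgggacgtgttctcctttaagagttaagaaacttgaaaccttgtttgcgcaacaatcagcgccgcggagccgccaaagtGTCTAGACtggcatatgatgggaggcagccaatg
Id2 promoter, chr12:25096063-25096342, minus strand: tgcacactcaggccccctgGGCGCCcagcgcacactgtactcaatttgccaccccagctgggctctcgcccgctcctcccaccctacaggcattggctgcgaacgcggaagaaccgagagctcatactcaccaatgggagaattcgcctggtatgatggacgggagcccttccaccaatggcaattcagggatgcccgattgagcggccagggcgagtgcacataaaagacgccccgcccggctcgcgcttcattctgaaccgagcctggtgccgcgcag
Id3 promoter, chr4:136143572-136143851, plus strand: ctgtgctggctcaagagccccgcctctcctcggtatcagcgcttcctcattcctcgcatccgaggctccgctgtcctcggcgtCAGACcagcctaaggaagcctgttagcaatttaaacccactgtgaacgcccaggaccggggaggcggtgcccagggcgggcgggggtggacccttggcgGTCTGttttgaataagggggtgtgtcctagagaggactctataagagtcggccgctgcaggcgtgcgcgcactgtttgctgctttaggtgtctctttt
GGCGCC lay at position -78 in Grem1 and -231 in Id2, and also at -198 in Bmpr1a and -105 in Bmpr2, counted from the start site at +1. The palindrome lay across the start of Smad6, from position -4. Short boxes lay at -219 and +18 in Grem1 and at -167 and -68 in Id3. Of 32851 promoter windows of this length, 10.9% held GGCGCC, 0.192% the palindrome and 46.8% a short box. The window of Bmp4 held none of these letters. A match describes the letters only.

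Levels below are normalised CPM, which are counts scaled to a common library total with TMM factors over all 53 libraries. Divided by exon length to compare genes, Id1 was the most abundant of the 10 genes in WT proximal colon, at 102 ± 12.8 normalised CPM per kb (SD, n = 3), and in every other group except BA tumours. There Grem1 came first, at 75.8 ± 13.2 per kb (SD, n = 4), with Id1 at 62.4 ± 19.4 within that spread. In WT proximal colon Grem1 was the seventh, at 5.25 ± 2.82 per kb (SD, n = 3). Bmp7 was the lowest of the 10 genes in WT small intestine and in every colon group, at 1.51 (BA, day 30) to 3.20 (BA tumours) per kb.

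**Figure D1:**
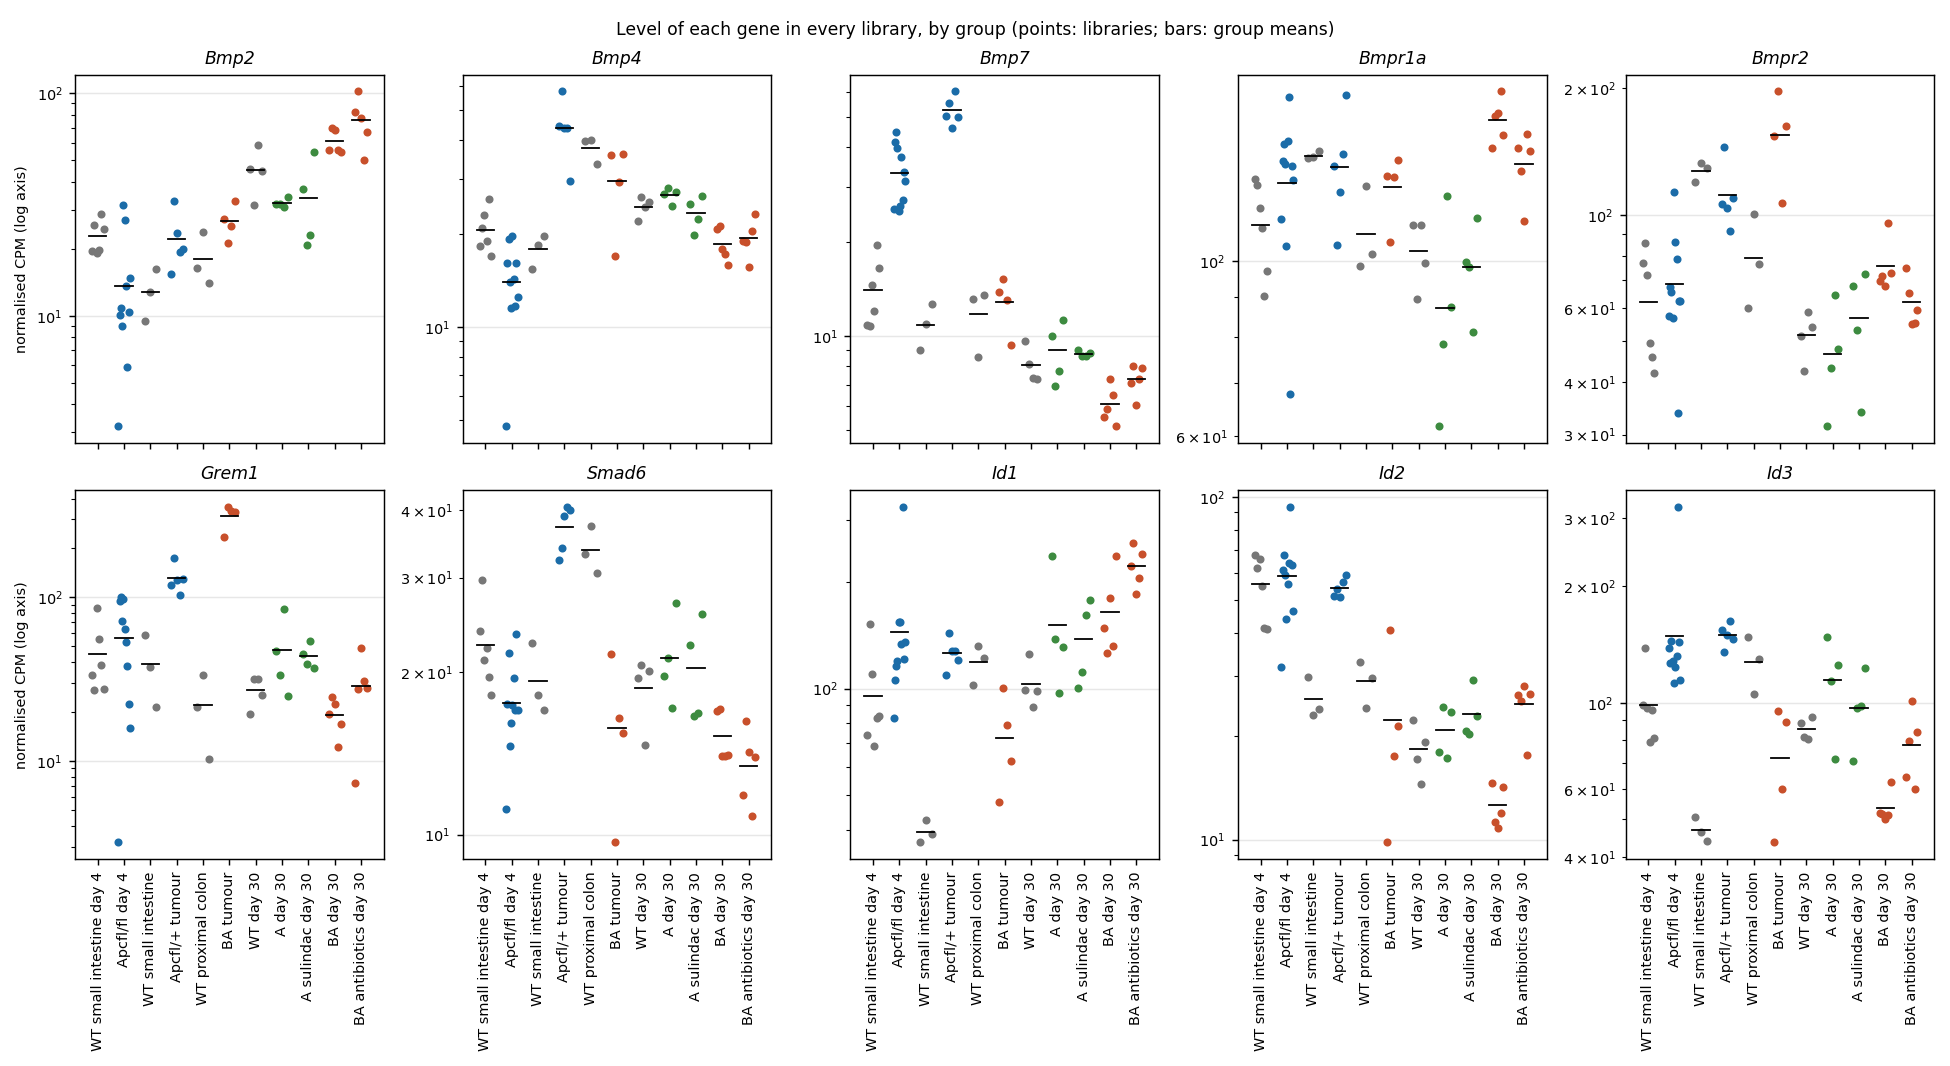
Each panel plots 1 gene, with normalised CPM on a log axis against the 11 groups. Points are libraries and bars are group means, grey for WT, blue for Apc-deleted, green for A and orange for BA. Grem1 lies at 234 to 355 in the BA tumours and at or below 174 in every other library.

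Wnt-driven Apcfl/+ tumours and BA tumours differed in most of these genes. In Apcfl/+ tumours 8 of the 10 genes were higher than in WT small intestine and 0 were lower, namely the 3 ligands, Grem1, Smad6 and the 3 ID genes, where 61.5% of all genes tested were called (31.4% higher). In BA tumours Grem1 and Bmpr2 were higher and Smad6 was lower than in WT proximal colon, where 13.2% of all genes were called. At day 30 all 10 genes differed between BA and WT mice, 4 higher and 6 lower, beside 55.1% of all genes. At day 4 after loss of Apc, Bmp7, Id1 and Id3 were higher and Bmp4 was lower, beside 54.2% of all genes. The median log2 fold change of the 10 genes was 1.29 in Apcfl/+ tumours, -0.14 in BA tumours, -0.36 in BA tissue at day 30 and 0.18 in Apcfl/fl tissue, against 0.03, 0.03, -0.03 and 0.00 over all genes tested. Less RNA per cell and fewer cells of a type cannot be told apart in these whole-tissue counts, for any gene below.

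**Figure D2:**
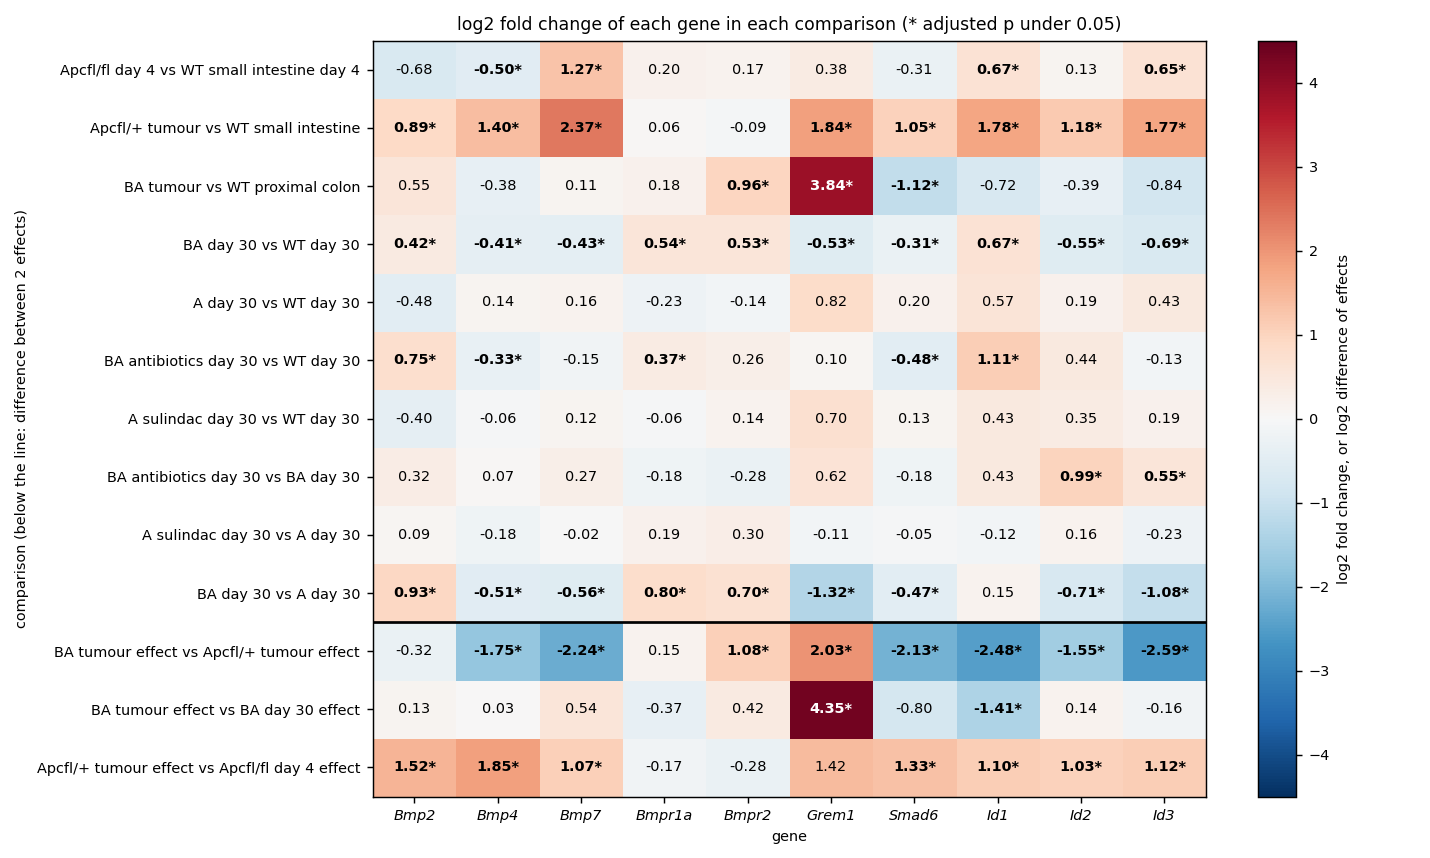
The heat map gives the log2 fold change of each of the 10 genes in 10 comparisons, and below the black line the log2 difference between 2 effects, with a star where the adjusted p was under 0.05. Apcfl/+ tumours have 8 starred increases, BA tumours have Grem1 at 3.84, and the rows of A mice against WT and of sulindac against none have no star.

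Among the ligands, Bmp7, which signals in epithelial and mesenchymal development, was higher after Apc was deleted, in tumours and in early tissue. It read 50.5, 55.2, 46.3, 60.4 and 50.2 normalised CPM in the 5 Apcfl/+ tumours, and 9.01, 10.9 and 12.6 in WT small intestine. At day 4 it ranged from 25.1 to 44.7 (median 32.3) in Apcfl/fl tissue and from 10.8 to 19.6 (median 13.3) in WT. Neither pair of groups overlapped, as for 59.2% of all genes in the tumour comparison and 16.8% at day 4. The increase was 5.18-fold in tumours (log2 2.37 ± 0.15 SE, adjusted p = 1.43e-05) and 2.41-fold at day 4 (log2 1.27 ± 0.17, adjusted p = 1.44e-05). In BA tumours Bmp7 read 13.8, 15.2, 13.0 and 9.40, within reach of the 13.1, 8.58 and 13.5 of WT proximal colon (log2 0.11 ± 0.26, adjusted p = 0.836, 95% interval -0.49 to 0.70).

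Bmp4, a mainly stromal ligand, moved in opposite directions in the 2 Apc models. Tumours of Apcfl/+ mice held 44.4, 57.6, 43.8, 43.8 and 29.7 normalised CPM against 15.4, 18.3 and 19.7 in WT (2.64-fold, log2 1.40 ± 0.20, adjusted p = 0.00051). These tumours also lay above the WT small intestine at day 4, which ranged from 16.98 to 25.9 and was not tested against them. Apcfl/fl tissue at day 4 ranged from 4.78 to 19.7 (median 14.2), lower than that WT group with overlap (log2 -0.50 ± 0.16, adjusted p = 0.0162), a call that the replicate block ended (adjusted p = 0.0644), and the 4.78 rests on 3 counts. BA tumours read 35.98, 16.9, 29.3 and 36.04 against 39.96, 40.1 and 33.6 in WT, a difference that did not pass (log2 -0.38 ± 0.26, adjusted p = 0.371). At day 30 all 5 BA mice, at 15.8 to 21.3, lay below all 4 WT mice, at 21.99 to 26.3 (1.33-fold lower, log2 -0.41 ± 0.10, adjusted p = 0.00526). The mesenchyme markers named with Grem1 below moved the same way, 7 of 10 lower here and 9 of 10 higher in Apcfl/+ tumours. Bmp4 amounted to 1.32% to 1.65% of their sum in BA mice at day 30 against 1.32% to 1.66% in WT, to 0.794% to 1.47% in Apcfl/+ tumours against 1.14% to 1.34%, and to 0.294% to 0.759% in BA tumours against 1.46% to 2.27%. About 89 exon bases of Bmp4 are shared with the antisense gene Gm15217, and the strand setting of the counting is not given in the sources used here.

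Bmp2, a ligand of differentiated surface epithelium, was highest in the colon of BA mice at day 30. It read 55.7, 69.7, 68.1, 55.3 and 54.4 normalised CPM there, 81.9, 101.9, 77.1, 49.9 and 67.0 with antibiotics, and 45.6, 31.5, 58.3 and 44.6 in WT. The increase was 1.33-fold in BA mice (log2 0.42 ± 0.15, adjusted p = 0.0371) and 1.68-fold with antibiotics (log2 0.75 ± 0.21, adjusted p = 0.0181), with overlap in both. The first call was lost without BA replicate 2 or 3 or WT replicate 1, 2 or 4 (log2 0.28 to 0.42, adjusted p = 0.0644 to 0.0832) and with all 5 day-30 groups fitted jointly (log2 0.42, adjusted p = 0.153), and the second with the replicate block (log2 0.78, adjusted p = 0.0549). Epithelial marker genes moved the same way: 9 of 10 were higher in BA mice, with sums of 21620 to 25940 against 11060 to 13270 in WT, and their part in the Bmp2 result was not tested. Apcfl/+ tumours read 15.5, 32.7, 23.7, 19.3 and 19.9 against 9.53, 12.8 and 16.2 (log2 0.89 ± 0.26, adjusted p = 0.0168), a call that was lost without WT replicate 1 (log2 0.72, adjusted p = 0.0628).

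Of the receptors, Bmpr1a, the type I receptor ALK3, was called only in the BA colon at day 30, at 139 to 164 normalised CPM against 89.5 to 111 in WT without overlap (1.46-fold, log2 0.54 ± 0.08, adjusted p = 0.000198), and under antibiotics at 112 to 145 (log2 0.37 ± 0.09, adjusted p = 0.00597), among the comparisons with WT. In both tumour comparisons its groups overlapped, with 95% intervals of -0.25 to 0.36 (Apcfl/+) and -0.23 to 0.58 (BA) on the log2 scale. Its exons share 290 bases with Gm17110.

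Bmpr2, the type II receptor, read 154.1, 196.7, 106.9 and 162.6 normalised CPM in BA tumours and 59.9, 100.6 and 76.3 in WT proximal colon. Every tumour was above every WT library (1.94-fold, log2 0.96 ± 0.26, adjusted p = 0.043), where 27.5% of all genes had groups that did not overlap. Leaving out BA tumour replicate 1 or 4, or WT replicate 1 or 3, took the call away (log2 0.79 to 0.99, adjusted p = 0.0626 to 0.196), as did the replicate block (log2 0.92, adjusted p = 0.121). At day 30 BA mice read 69.7, 71.5, 67.7, 95.7 and 72.8 against 51.4, 42.6, 58.8 and 54.2 (log2 0.53 ± 0.12, adjusted p = 0.00287). No change was called in Apcfl/+ tumours, at 91.4 to 145.1 against 119.9 to 133, nor in Apcfl/fl tissue.

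Grem1, which encodes the BMP antagonist gremlin 1 of pericryptal stroma, had the largest increase of the 10 genes. BA tumours read 234, 355, 335.5 and 333 normalised CPM against 21.4, 33.7 and 10.3 in WT proximal colon, so the lowest tumour was above the highest WT library. The increase was 14.3-fold (log2 3.84 ± 0.43, adjusted p = 0.00186). In Apcfl/+ tumours Grem1 read 119, 174, 127, 103 and 129.9 against 58.7, 37.6 and 21.5 in WT small intestine, 3.58-fold higher without overlap (log2 1.84 ± 0.31, adjusted p = 0.00108). All 5 of these tumours also lay above the 6 WT mice at day 4, which reached 85.9. The 2 increases differed from each other by 2.03 ± 0.50 on the log2 scale (interaction, adjusted p = 0.00636).

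Stromal markers moved with Grem1. The 10 mesenchyme markers (Pdgfra, Pdgfrb, Col1a1, Col1a2, Col3a1, Dcn, Lum, Foxl1, Thy1 and Vim) summed to 4742 to 5887 normalised CPM in BA tumours and to 1758 to 2729 in WT proximal colon, with 4 of 10 called higher, 0 lower and 0 at zero. Their log2 fold changes ran from -0.61 to 2.11 (median 1.01), and that of Grem1 was above all 10. In Apcfl/+ tumours 9 of 10 were higher, at 0.42 to 1.87, and Grem1 was above 9 of them. Grem1 amounted to 4.93% to 6.17% of the mesenchyme sum in BA tumours against 0.447% to 1.23% in WT proximal colon, and to 3.37% to 4.38% in Apcfl/+ tumours, inside the 1.45% to 4.63% of WT small intestine. Endothelial markers were higher in 5 of 8 cases in BA tumours and 7 of 8 in Apcfl/+ tumours, and immune markers in 6 of 10 and 2 of 10, with 4 of 10 lower in the latter, while smooth muscle markers were lower in 3 of 8 and 4 of 8. The part of these markers in the increase of Grem1 was not tested.

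**Figure D3:**
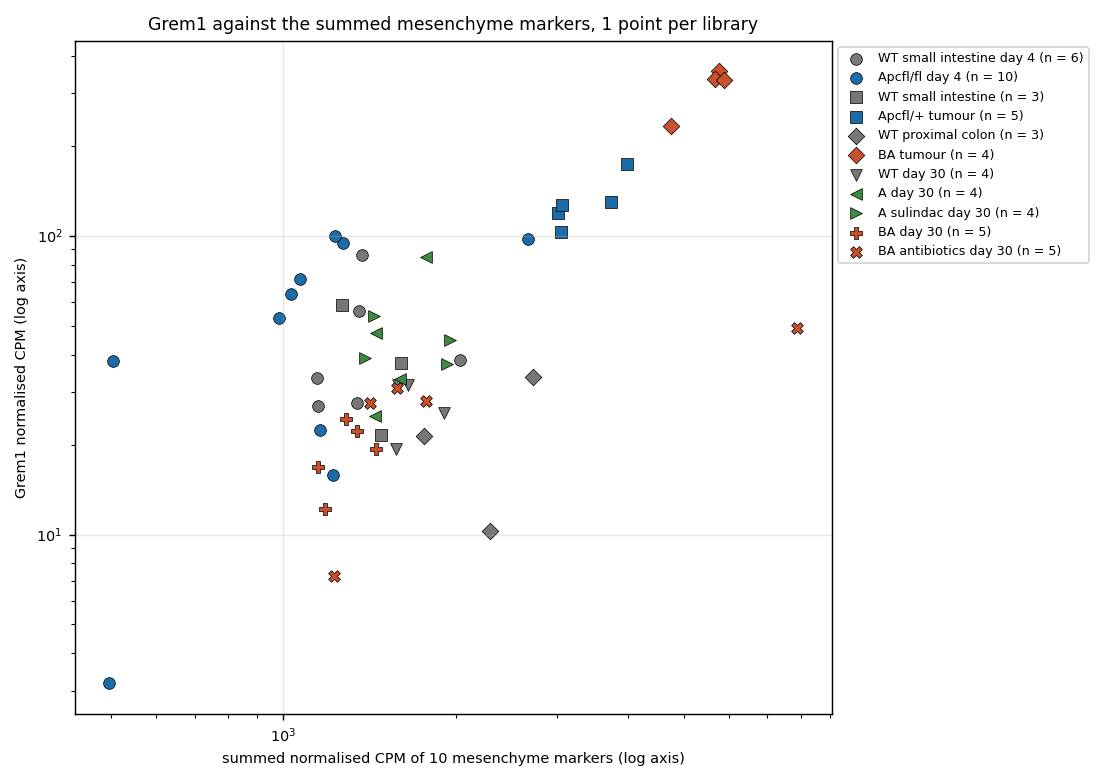
Normalised CPM of Grem1 is plotted against the summed normalised CPM of 10 mesenchyme markers, both on log axes, with 1 point for each of 53 libraries. BA tumours (orange diamonds) lie at 4742 to 5887 on the marker axis and 234 to 355 on the Grem1 axis, while BA antibiotics replicate 3 has a marker sum of 7888 with Grem1 at 49.1.

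At day 30 Grem1 was not higher in BA colon than in WT colon. BA mice read 19.3, 24.4, 22.1, 12.1 and 16.8 normalised CPM against 19.4, 31.6, 31.7 and 25.4 in WT, with overlap (1.45-fold lower, log2 -0.53 ± 0.20, adjusted p = 0.0392). This call was lost without BA replicate 1, 4 or 5 or WT replicate 2, 3 or 4 (adjusted p = 0.0563 to 0.107) and with all 5 day-30 groups in 1 fit (adjusted p = 0.259). Of the mesenchyme markers, 7 of 10 were lower as well (median log2 -0.41), with sums of 1148 to 1450 against 1570 to 1908. Smooth muscle markers were lower in 6 of 8 cases (median log2 -0.99), with sums of 1024 to 4218 against 5232 to 6096. The part of these markers was not tested. For Grem1, A mice read 47.1, 33.2, 85.0 and 24.9, and the 5 BA mice lay below all 4 of them (2.50-fold lower, log2 -1.32 ± 0.32, adjusted p = 0.00644). Between BA and A mice 36.1% of all genes had groups that did not overlap. The change of Grem1 against WT differed by 4.35 ± 0.44 on the log2 scale between BA tumours and BA tissue at day 30 (adjusted p = 3.56e-05).

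Set against Bmp4 per kb, Grem1 was 3.52 to 11.4 times as abundant in BA tumours and 0.166 to 0.455 times in WT proximal colon. In Apcfl/+ tumours the ratio was 1.27 to 2.37 and in WT small intestine 0.590 to 2.07. Ordered by mean level, BA tumours (314 ± 54.6 normalised CPM, SD, n = 4) were followed by Apcfl/+ tumours (130.5 ± 26.6, n = 5) and Apcfl/fl tissue (56.0 ± 35.4, n = 10). The remaining 8 groups had means of 18.9 to 47.6, each within the spread of its neighbours in this order.

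Smad6, the feedback inhibitor, went in opposite directions in the 2 tumour models. It read 32.4, 34.1, 39.1, 40.6 and 40.1 normalised CPM in Apcfl/+ tumours against 22.7, 18.2 and 17.03 in WT (2.07-fold, log2 1.05 ± 0.13, adjusted p = 0.000242). BA tumours read 21.6, 9.68, 16.5 and 15.4 against 33.2, 37.4 and 30.6 (2.17-fold lower, log2 -1.12 ± 0.25, adjusted p = 0.0193). Groups did not overlap in either comparison, but the day-30 WT colon, at 14.7 to 20.6, overlapped the BA tumours. The decrease was no longer called without BA tumour replicate 4 or any 1 of the 3 WT libraries (log2 -1.17 to -1.06, adjusted p = 0.0571 to 0.0792), or with the replicate block (log2 -1.16, adjusted p = 0.089). The difference between the 2 effects was -2.13 ± 0.29 (adjusted p = 0.000196). At day 30 Smad6 was lower in BA mice, at 14.0 to 17.1 against 14.7 to 20.6 (log2 -0.31 ± 0.12, adjusted p = 0.043), with overlap, and this call was lost in all 6 other settings tried (adjusted p = 0.0545 to 0.132) and without BA replicate 3, 4 or 5 or WT replicate 1, 2 or 4 (adjusted p = 0.0827 to 0.112).

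The ID genes rose together in Apcfl/+ tumours. Id1 read 109.5, 144, 128, 127 and 120.4 normalised CPM against 36.8, 42.5 and 38.9 in WT small intestine (3.42-fold, log2 1.78 ± 0.11, adjusted p = 1.35e-05). Id3 read 154, 135.5, 149.5, 163 and 146 against 50.6, 46.4 and 44.1 (3.41-fold, log2 1.77 ± 0.10, adjusted p = 9.45e-06). Id2 read 51.4, 53.7, 51.0, 56.4 and 59.1 against 29.9, 23.1 and 24.0 (2.27-fold, log2 1.18 ± 0.11, adjusted p = 6.21e-05). No tumour overlapped its WT group, as for 59.2% of all genes. The WT small intestine at day 4 lay higher, at 69.0 to 152 for Id1, 79.4 to 138.5 for Id3 and 41.2 to 67.7 for Id2, so that these tumours overlapped it for Id1, Id2 and Id3. For Id3 this overlap rested on WT day 4 replicate 2, at 138.5, the others of that group reading 79.4 to 98.4. For Id1 it rested on WT day 4 replicates 2 and 3, at 152 and 110. The 2 WT groups differ in genetic background and day, and were not tested against each other.

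In BA tumours no ID gene passed the test. Id1 read 48.0, 100.3, 78.8 and 62.3 normalised CPM against 102.5, 132 and 122 in WT proximal colon (log2 -0.72 ± 0.27, adjusted p = 0.115), and Id3 read 43.7, 95.4, 59.9 and 89.2 against 148, 105.4 and 130 (log2 -0.84 ± 0.30, adjusted p = 0.0988). For both genes every tumour was below every WT library. Without BA tumour replicate 2, the library with 11.7% mitochondrial reads, both were called lower (Id1 log2 -0.95, adjusted p = 0.0216, and Id3 log2 -1.03, adjusted p = 0.0345), and Id3 also with no low-count filter (log2 -0.86, adjusted p = 0.0434). Id2 read 9.83, 40.8, 17.6 and 21.4 against 32.99, 24.3 and 29.6, with overlap (log2 -0.39 ± 0.42, adjusted p = 0.6). Replicate 2 was the highest of the 4 tumours for Id1, Id2 and Id3 and the lowest for Smad6 and Bmp4. The day-30 WT colon, at 88.9 to 124.8 for Id1 and 80.5 to 91.9 for Id3, overlapped the tumours for both. For Id1 only tumour replicate 2, at 100.3, reached that range, and the others lay below it. For Id3 tumour replicate 4, at 89.2, lay within the range and replicate 2, at 95.4, above it.

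Of the 10 genes, 8 changed differently in the 2 tumour models, beside 39.7% of all genes. The log2 effect in BA tumours minus that in Apcfl/+ tumours was -2.59 ± 0.31 for Id3 (adjusted p = 8.91e-05), -2.48 ± 0.28 for Id1 (adjusted p = 6.34e-05) and -1.55 ± 0.44 for Id2 (adjusted p = 0.0139). It was -2.24 ± 0.28 for Bmp7 and -1.75 ± 0.34 for Bmp4, and above 0 for Grem1 (2.03) and Bmpr2 (1.08 ± 0.29, adjusted p = 0.0105). Bmp2 and Bmpr1a did not pass, with 95% intervals of -1.09 to 0.46 and -0.29 to 0.60. Tissue, background and tumour genotype cannot be told apart in these differences.

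At day 4 after loss of Apc, Id1 and Id3 were higher than in WT. Both groups held libraries with high and with low Gm13394 and Ddx3y, as given above, and the part of neither gene was tested. Endothelial markers were lower in 5 of 8 cases in this comparison, immune markers in 6 of 10 and small-intestinal markers in 6 of 6, with 0 of each higher, and their part was not tested. Id1 ranged from 82.8 to 325 (median 127) in Apcfl/fl tissue and from 69.0 to 152 (median 83.3) in WT (1.59-fold, log2 0.67 ± 0.27, adjusted p = 0.0453). Id3 ranged from 112 to 320 (median 129.9) and from 79.4 to 138.5 (median 96.5) (1.57-fold, log2 0.65 ± 0.24, adjusted p = 0.0285). Groups overlapped for both. Apcfl/fl replicate 8, the highest for both genes, had a mesenchyme sum of 503 and the low Apc, Tgfbr1 and Braf given above. Without this library the log2 fold changes were 0.40 for Id1 (adjusted p = 0.0315) and 0.40 for Id3 (adjusted p = 0.00479). With Apcfl/fl replicates 1 and 8 both left out, 5 genes were called in place of 4, Bmpr1a joining them (log2 0.32, adjusted p = 0.0058). The Id1 call was lost without Apcfl/fl replicate 5, 6 or 10 or WT replicate 1, 3, 4, 5 or 6 (adjusted p = 0.0507 to 0.101), and that of Id3 without WT replicate 1, 3, 4 or 6 (adjusted p = 0.0507 to 0.0652). Bmp2 (log2 -0.68, adjusted p = 0.064), Smad6 (-0.31, adjusted p = 0.0533), Id2 (0.13) and Grem1 (0.38) did not pass. In the 6 other settings tried, Smad6 was called lower in 4 (RLE, DESeq2, voom and the replicate block, adjusted p = 0.0375 to 0.0482) and Bmp2 in 3 (DESeq2, voom and the block, adjusted p = 0.0338 to 0.0396), while the Id1 call was lost with no low-count filter (log2 0.61, adjusted p = 0.0577) and with the block (log2 0.41, adjusted p = 0.0826). Bmp2 was called lower without Apcfl/fl replicate 5 or 6 (log2 -0.90 and -0.83, adjusted p = 0.00671 and 0.0231), and Smad6 without Apcfl/fl replicate 3, 8 or 9 or WT replicate 6 (adjusted p = 0.0238 to 0.039). Bmpr1a was called higher without Apcfl/fl replicate 8 (log2 0.26, adjusted p = 0.0176) and with the block (log2 0.24, adjusted p = 0.049).

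Between the 2 Apc models, the signed log2 effect of 7 of the 10 genes was called higher in tumours than at day 4, and 0 were called lower. Over all genes 24.7% were called in either direction. The differences were 1.85 ± 0.29 for Bmp4 (adjusted p = 0.000112), 1.52 ± 0.51 for Bmp2 (adjusted p = 0.0317), 1.33 ± 0.22 for Smad6 (adjusted p = 0.000223) and 1.07 ± 0.25 for Bmp7 (adjusted p = 0.0041). For the targets they were 1.12 ± 0.34 (Id3, adjusted p = 0.0191), 1.10 ± 0.40 (Id1, adjusted p = 0.0453) and 1.03 ± 0.29 (Id2, adjusted p = 0.012). Mean normalised CPM in Apcfl/+ tumours and Apcfl/fl tissue was 126 and 145 for Id1, 54.3 and 58.6 for Id2 and 149.5 and 148 for Id3. In their WT groups, small intestine and day 4, it was 39.4 and 95.3, 25.7 and 55.5, and 47.0 and 98.4. Genotype, day, genetic background and WT group cannot be told apart in these differences. The Bmp2 call was lost without WT small intestine replicate 1 or 2 or Apcfl/+ tumour replicate 2 (adjusted p = 0.0546 to 0.0951), the Id3 call without WT small intestine replicate 3 (adjusted p = 0.0567), and the Id1 call without 18 of the 24 libraries, all but Apcfl/fl replicates 5 and 8 and WT day 4 replicates 1, 4, 5 and 6 (adjusted p = 0.0507 to 0.0982). RLE scaling ended the calls of Id1 and Id3 (adjusted p = 0.0879 and 0.0502), and DESeq2 that of Id1 (adjusted p = 0.0673).

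At day 30 the ID genes of BA colon went separate ways. Id1 read 148, 126, 181, 132 and 237 normalised CPM against 98.9, 124.8, 88.9 and 98.2 in WT, higher without overlap (1.59-fold, log2 0.67 ± 0.18, adjusted p = 0.00712). Id3 read 52.0, 51.8, 50.1, 51.2 and 62.4 against 88.9, 81.5, 80.5 and 91.9, without overlap (1.62-fold lower, log2 -0.69 ± 0.07, adjusted p = 1.9e-05). Id2 read 14.6, 11.3, 10.9, 12 and 14.2 against 22.4, 17.2, 14.5 and 19.3, with overlap in 1 BA mouse (1.47-fold lower, log2 -0.55 ± 0.13, adjusted p = 0.00455). In this comparison 45.4% of all genes had groups that did not overlap. These 3 calls, and those of Bmp4, Bmpr1a and Bmpr2, were kept with each library left out and in all 6 other settings. Bmp7 was also lower, at 5.15 to 7.29 against 7.32 to 9.62 (log2 -0.43 ± 0.14, adjusted p = 0.0212), a call lost without BA replicate 5 or WT replicate 1 (adjusted p = 0.0525 and 0.0679) or with the replicate block (adjusted p = 0.0985).

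Per kb, the ratio of Id1 to Id3 was 3.76 to 5.86 (median 4.40) in the 5 BA mice at day 30 and 1.65 to 2.36 (median 1.71) in WT. With antibiotics it was 2.83 to 5.35. In the other 9 groups no library exceeded 2.54, and BA tumours lay at 1.08 to 2.03. This ratio was formed after the levels had been seen and carries no test. Id1 moved differently in BA tumours and in BA tissue at day 30 (log2 difference -1.41 ± 0.32, adjusted p = 0.00654), beside 16.3% of all genes, and of the other 9 genes only Grem1 was called in that comparison of effects. Smad6 came close there (-0.80 ± 0.27, adjusted p = 0.0562) and was called in the 4 other settings (adjusted p = 0.0207 to 0.0442) and without BA tumour replicate 1 (-0.99, adjusted p = 0.0111).

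**Figure D4:**
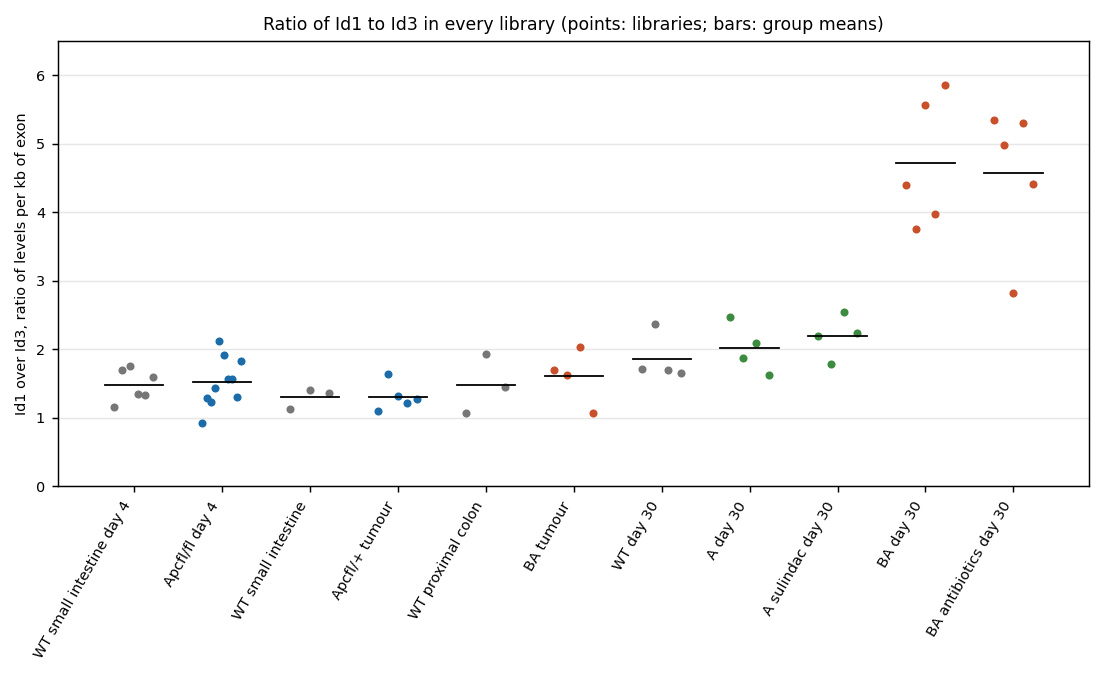
The ratio of Id1 to Id3, each as normalised CPM per kb of exon, is plotted for every library by group, with bars at group means and an axis from 0. The 10 BA libraries at day 30, with and without antibiotics, lie at 2.83 to 5.86, and every other library lies at or below 2.54.

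Deletion of Alk5 alone was not followed by a call in any of the 10 genes at day 30. Against WT, A mice had 0 of 10 genes called, beside 0.141% of all genes, and A mice with sulindac had 0 of 10, beside 0.0507%. Sulindac against no sulindac in A mice gave 0 calls among the 10 genes and 0% over all genes. At an unadjusted p under 0.05, edgeR had 4, 2 and 0 of the 10 genes and 1717, 1607 and 460 of all genes in these 3 comparisons, and DESeq2 and limma with voom also called 0 of the 10. Grem1 had the largest differences, at 24.9 to 85.0 in A mice and 37.1 to 53.9 with sulindac against 19.4 to 31.7 in WT (log2 0.82 ± 0.33, adjusted p = 0.503, and 0.70 ± 0.18, adjusted p = 0.365). Id1 read 237, 138, 97.4 and 131 in A mice (log2 0.57 ± 0.24, adjusted p = 0.508). For Id3 the 95% interval of A against WT was 0.01 to 0.85.

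With mutant Braf added on the Alk5-deleted background, 9 of the 10 genes differed, beside 45.3% of all genes. BA mice had more Bmp2 (1.90-fold, log2 0.93 ± 0.11, adjusted p = 5.87e-05), Bmpr1a (1.74-fold, log2 0.80 ± 0.17, adjusted p = 0.00332) and Bmpr2 (1.63-fold, log2 0.70 ± 0.19, adjusted p = 0.0123) than A mice. They had less Id3 (2.11-fold, log2 -1.08 ± 0.16, adjusted p = 0.000364), Id2 (1.64-fold, log2 -0.71 ± 0.15, adjusted p = 0.00236), Bmp4 (log2 -0.51), Bmp7 (-0.56), Smad6 (-0.47) and, as given above, Grem1. Id1 was not called (log2 0.15 ± 0.24, adjusted p = 0.643). The Bmp7 call was lost without BA replicate 1 or 5 or A replicate 4 (adjusted p = 0.0526 to 0.0974), and the Smad6 call without BA replicate 4 or A replicate 2 or 4 (adjusted p = 0.0559 to 0.0834). The replicate block also ended the calls of Bmp7 (log2 -0.48, adjusted p = 0.0826) and Smad6 (-0.43, adjusted p = 0.067), and testing with no low-count filter that of Bmp7 (adjusted p = 0.0582). Epithelial markers were higher in 9 of 10 cases here and mesenchyme markers lower in 6 of 10, and their part was not tested.

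Antibiotics in BA mice were followed by higher Id2 and Id3. Id2 read 26.5, 25.4, 28.1, 17.6 and 26.6 normalised CPM with antibiotics and 14.6, 11.3, 10.9, 12 and 14.2 without, with no overlap (1.98-fold, log2 0.99 ± 0.14, adjusted p = 0.00158). In this comparison 10.7% of all genes had groups that did not overlap. Id3 read 64.2, 79.6, 100.9, 59.8 and 83.8 against 50.1 to 62.4, with overlap (1.47-fold, log2 0.55 ± 0.14, adjusted p = 0.0276), and this call was lost without BA replicate 1, 2, 3 or 4 or antibiotics replicate 2 or 5 (adjusted p = 0.0509 to 0.0683) and with all 5 day-30 groups fitted jointly (adjusted p = 0.0613). These were 2 of 10 genes, beside 13.0% of all genes. Against WT, 5 of 10 were called under antibiotics beside 39.6% of all genes, with Id1 at 222, 257, 185, 205 and 239 (2.16-fold, log2 1.11 ± 0.12, adjusted p = 4.94e-05), Bmp2 and Bmpr1a higher and Bmp4 (log2 -0.33, adjusted p = 0.0271) and Smad6 (-0.48, adjusted p = 0.0275) lower. The Bmp4 call was lost without antibiotics replicate 1 or 2 or WT replicate 2, 3 or 4 (adjusted p = 0.0609 to 0.0708), and the Smad6 call without WT replicate 1, 2 or 4 (adjusted p = 0.061 to 0.0728) or with the replicate block (adjusted p = 0.0812). The joint fit of 5 groups ended the call of Bmpr1a (adjusted p = 0.0547). Id2 was called higher than in WT by RLE, DESeq2 and the joint fit (adjusted p = 0.03 to 0.049) and without antibiotics replicate 4 or WT replicate 1 (log2 0.52 and 0.55, adjusted p = 0.0128 and 0.0323). Against untreated BA mice, Bmpr2 (log2 -0.35, adjusted p = 0.0467) and Grem1 (log2 0.87, adjusted p = 0.0347) were called without antibiotics replicate 1, and Id1 without BA replicate 5 (log2 0.59, adjusted p = 0.0129) and by DESeq2 (adjusted p = 0.0386). Antibiotics replicate 3, with a mesenchyme sum of 7888 against 1225 to 1774 in the others of its group, held the highest Grem1, Id3 and Id2 of that group. Without it the log2 fold changes against untreated BA mice were 0.92 for Id2 (adjusted p = 0.0018), 0.41 for Id3 (adjusted p = 0.0223) and 0.30 for Grem1 (adjusted p = 0.579, against 0.62 with it, adjusted p = 0.294).

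A list of 45 pathway genes held the 10 genes above and 35 others, and 39 to 43 of the 45 were tested in a comparison. In Apcfl/+ tumours 14 of the 31 others tested were higher and 3 lower, that is 54.8% called against 61.5% of all genes. Over the whole list 22 of 41 were higher and 3 lower (61% called), among them 9 of 12 antagonists and 8 of 9 targets higher and 0 of either lower, with median log2 fold changes of 1.604 and 1.183. Msx1, a homeobox target gene, stood at 11.7 against 0.198 normalised CPM (log2 5.95 ± 0.75, adjusted p = 0.000256), and the follistatin-like antagonist Fstl1 at 262 against 46.2 (log2 2.61 ± 0.14, adjusted p = 9.06e-06). Bmp8a, Acvr2a and Smad4 were the 3 that fell. In BA tumours 9 of the 31 others were higher and 2 lower (35.5% called, against 13.2% of all genes). Over the whole list 11 of 41 were higher and 3 lower (34.1%), with 7 of 12 antagonists higher and 1 lower (median log2 1.57) but 0 of 8 targets higher and 1 lower (median -0.78). Chrdl2, a chordin-like antagonist, stood at 6.30 against 0.335 normalised CPM (log2 4.27 ± 0.92, adjusted p = 0.0178), while the transducer gene Smad9 (log2 -1.50 ± 0.30, adjusted p = 0.0142) fell. Chrdl2 was also higher in Apcfl/+ tumours, at 0.846 against 0.141 (log2 2.618 ± 0.435, adjusted p = 0.00102).

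The ligand gene Bmp8b was the pathway gene with the largest increase in BA tissue. It averaged 48.0 normalised CPM in BA tumours against 1.16 in WT proximal colon (41.7-fold, log2 5.38 ± 0.42, adjusted p = 0.000464) and 115 at day 30 against 4.91 in WT (23.0-fold, log2 4.52 ± 0.25, adjusted p = 1.68e-07). With antibiotics it was at 123, and against A mice it was 25.4-fold higher. At day 30, 8 of the 29 others were higher and 10 lower in BA mice (62.1% called, against 55.1% of all genes). Over the whole list 12 of 39 were higher and 16 lower (71.8%), with 8 of 13 antagonists lower, among them Chrdl1 (log2 -1.40) and Sostdc1 (-1.81), and 1 higher, Nbl1 (1.38 ± 0.11, adjusted p = 1.89e-06). Targets split, with 4 of 8 higher (Id4 at log2 0.76) and 3 lower. Of the marker genes in this comparison, 7 of 10 for mesenchyme and 6 of 8 for smooth muscle were lower, and 9 of 10 for epithelium were higher. Their part was not tested. In Apcfl/fl tissue 7 of the 29 others were higher, led by Msx1 (log2 5.73) and Chrdl2 (2.37), and 10 lower, led by Bmp3 (-1.58), Nog (-1.58) and Chrdl1 (-1.19), that is 58.6% called against 54.2% of all genes. The median log2 fold change of the others was 0.49 in Apcfl/+ tumours, 0.19 in BA tumours, -0.14 in BA mice at day 30 and -0.14 in Apcfl/fl tissue, against 0.69, 0.12, -0.31 and -0.11 with the 10 genes included. The shares in both Apc models were near those of all genes.

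**Figure D5:**
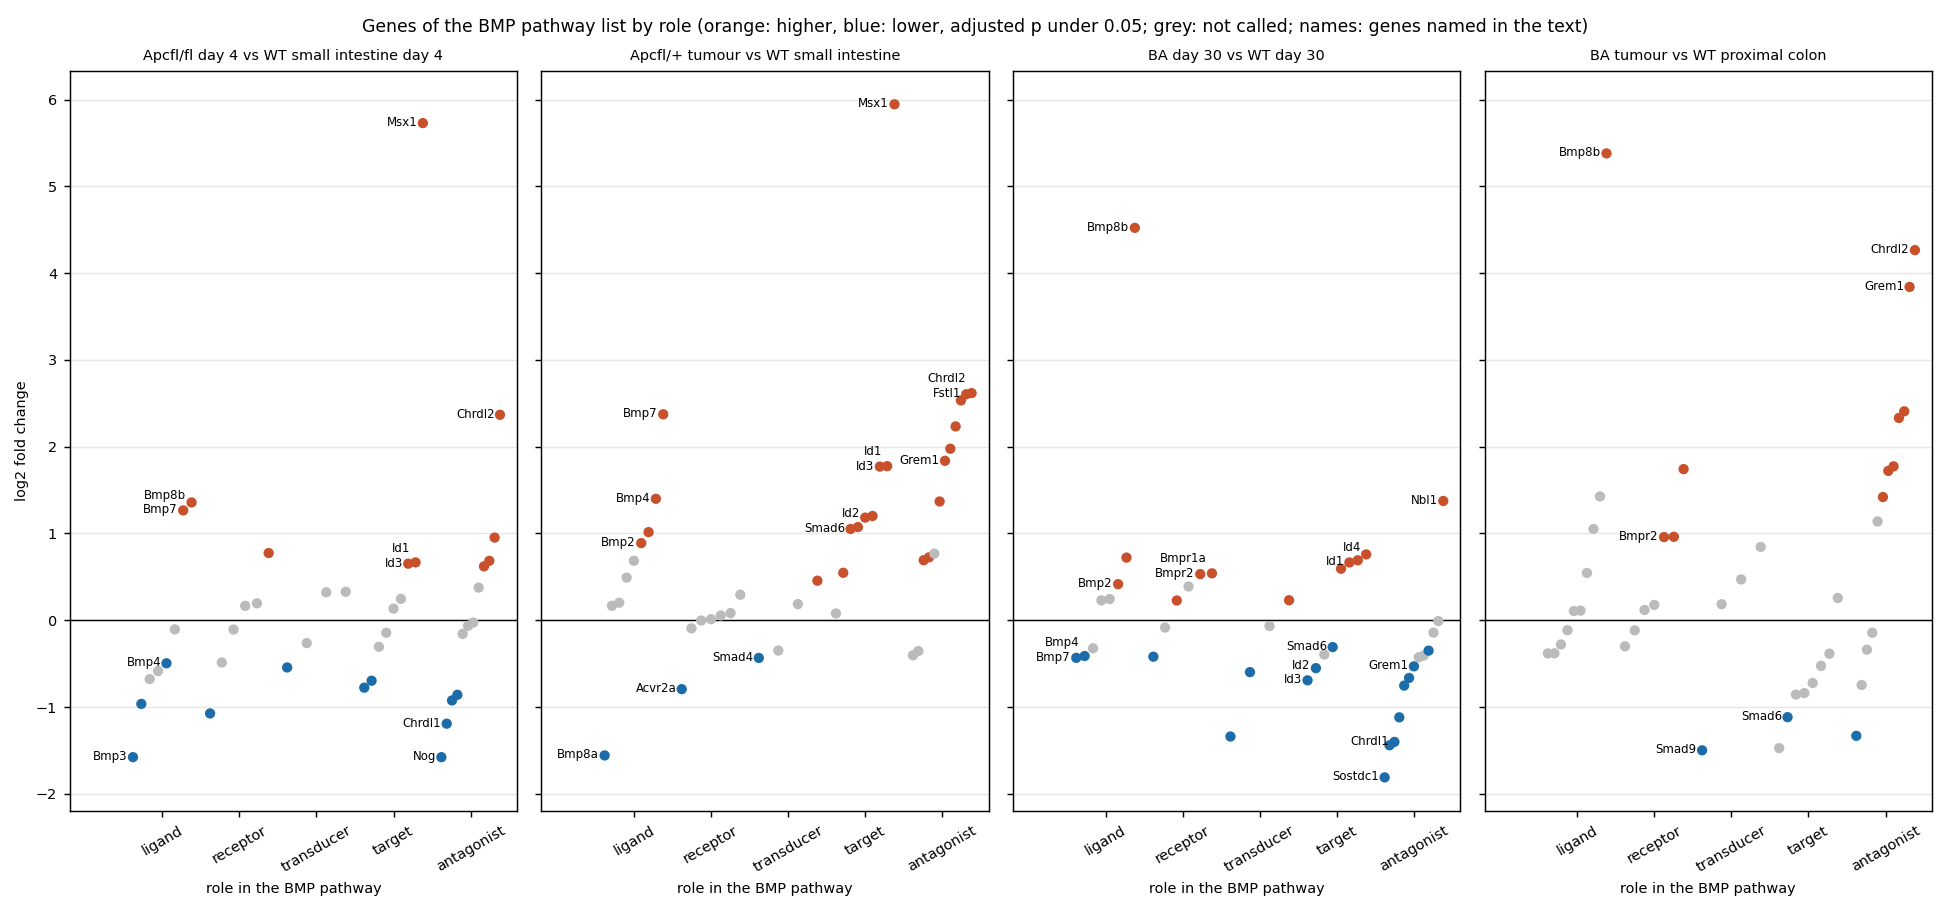
Log2 fold changes of the tested genes of the 45-gene list are plotted by role in 4 comparisons, orange where higher and blue where lower at an adjusted p under 0.05, grey otherwise, with names on genes given in the text. Antagonists are mostly above 0 in both tumours (9 of 12 and 7 of 12 higher) and mostly below 0 in BA tissue at day 30 (8 of 13 lower), while targets are higher in Apcfl/+ tumours (8 of 9) and not in BA tumours (0 of 8).

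In the remaining comparisons of this list, A mice and A mice with sulindac had 0 called against WT (of 42 and 39 tested) and 0 of 39 against each other, with 10, 4 and 2 genes at an unadjusted p under 0.05. With antibiotics, 6 of the 30 others were higher and 2 lower than in WT (26.7% called, against 39.6% of all genes), and 1 was higher (Twsg1) and 1 lower (Bmp3) than in untreated BA mice (6.67%, against 13.0%). BA against A gave 8 higher and 8 lower of 29 (55.2%, against 45.3%). Effects of BA and Apcfl/+ tumours differed for 12 of the 33 others (36.4%, against 39.7%), and over the whole list for 7 of 9 targets, all below 0, and 4 of 13 antagonists, 3 of them below 0. Effects of BA tumours and BA tissue at day 30 differed for 10 of the 33 others, beside 16.3% of all genes, and over the whole list for 7 of 13 antagonists, all 7 above 0 (Grem1, Chrdl2 at 4.29 and Fst at 3.44 the largest). Effects of Apcfl/+ tumours and Apcfl/fl tissue differed for 13 of the 32 others (40.6%, against 24.7%), all 13 above 0.

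Over the 11 group means of log2 normalised CPM, among 10592 genes, the patterns most like that of Grem1 were those of Sulf1 (Pearson r = 0.95) and Hsd11b1 (r = 0.95), which also had r of 0.64 and 0.51 with it over 53 libraries after the group means were removed. For Id1 they were Ovca2 (r = 0.96) and Hprt (r = 0.93), with 0.03 and 0.59 within groups, and for Id3 Fundc1 (r = 0.93) and Zfp213 (r = 0.92), with 0.22 and -0.02. Bmp4 was most like Anxa6 (r = 0.95, within groups 0.54) and Bmp2 most like Cttn (r = 0.96, within groups 0.43). Bmp7 and Gga2 (r = 0.97), Bmpr2 and Myh9 (r = 0.98), Bmpr1a and Zfp143 (r = 0.93), Id2 and Rabggta (r = 0.96) and Smad6 and Txndc5 (r = 0.94) were the other closest pairs. These are descriptions over groups that differ in tissue, in tumour or normal state and in library depth, and the part of these was not tested.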

How the data were processed

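Paired-end RNA-seq of whole intestinal tissue was trimmed with Trim Galore 0.6.4, checked with FastQC 0.11.8, aligned with HISAT2 2.1.0 and counted with featureCounts 1.6.4 on GRCm38 genes, per the submitters' processing notes and the study's methods. The authors deposited raw read counts per gene, not normalised, for 53 libraries, and 0 columns were left unused. The strand setting is not given in the sources used here. Totals of 516985 to 32824795 reads set the precision, and floors of 3 counts cover counting error only, while the 95% intervals of fold changes come from the fits and carry the spread between mice.

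Each pair of groups was fitted alone with edgeR 4.0.16 (R 4.3.3): filterByExpr, TMM scaling and a two-sided quasi-likelihood test with Benjamini-Hochberg adjustment over all genes tested, called at 0.05. Every adjusted p in the report is from this test unless another is named. Differences between effects were interaction terms in fits of 4 groups. No gene-list p was computed. Fits were tested on simulated data. Alternatives were a block on replicate number, omission of each library in turn, a joint fit of the 5 groups of day 30, testing of unfiltered genes, RLE scaling, voom in limma 3.58.1, and DESeq2 1.42.0. Leaving out Apcfl/fl replicates 1 and 8 together was chosen after seeing the data.

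Normalised CPM used TMM factors over all 53 libraries. Likeness used log2 CPM with a prior count of 2, among genes with a mean of at least 3. Tables and figures were made with pandas 2.3.3 and matplotlib 3.10.9 (Python 3.11.15).

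The 10 genes, the 45-gene pathway list and the marker lists (mesenchyme, smooth muscle, endothelium, epithelium, immune, small intestine and colon) were chosen with earlier results of these data known. The rule for naming took all 10 genes in every comparison, the 3 largest increases and decreases among called genes of the list, and the 2 genes most like each member. Not every gene that met it is printed for every comparison, and for some members only 1 like gene is given. Further genes of the list are counted but not named, and 1 of them was withheld. Gm13394 and Ddx3y were chosen after their values were seen. Samples were grouped by their labels, equal replicate numbers mark different mice, and of 120 replicate pairs 0 were identical. P-values measure the spread between mice.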

Additional observations from a re-analysis of the deposited data

Results flagged for a closer look

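Of 90 sets of 4 to 10 libraries, 6 had a highest or lowest library set apart from the rest by Dixon's criterion, which chance alone meets in about 1 set of 20. Bmpr2 read 95.7 normalised CPM in BA day 30 replicate 4 against 67.7 to 72.8 in the others. Apcfl/fl replicate 8 read 325 for Id1 against 82.8 to 154.6, and 319.8 for Id3 against 112 to 144. Id3 also stood apart in WT small intestine day 4 replicate 2, at 138.5 against 79.4 to 98.4, and in BA day 30 replicate 5, at 62.4 against 50.1 to 52.0. Id2 was low in BA antibiotics replicate 4, at 17.6 against 25.4 to 28.1.

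Of 30 differences between effects, 17 passed the interaction test. Between BA and Apcfl/+ tumours they were -1.75 for Bmp4, -2.24 for Bmp7, 1.08 for Bmpr2, 2.03 for Grem1, -2.13 for Smad6, -2.48 for Id1, -1.55 for Id2 and -2.59 for Id3 on the log2 scale. Between BA tumours and BA tissue at day 30 they were 4.35 for Grem1 and -1.41 for Id1. Between Apcfl/+ tumours and Apcfl/fl tissue they were 1.52 for Bmp2, 1.85 for Bmp4, 1.07 for Bmp7, 1.33 for Smad6, 1.10 for Id1, 1.03 for Id2 and 1.12 for Id3.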

How the results depend on the processing

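With other settings, 658 of 710 log2 fold changes of the 10 genes kept direction and call, 24 lost a call, 18 gained one and 10 turned direction. With 1 library left out these were 1345 of 1470, 82, 15 and 28. Counts of genes called stayed within 1.5 times in 68 of 71 and 131 of 147 cases. The exceptions were 1 gene in BA tumours (3 otherwise) and 3 in BA mice with antibiotics against WT (5 otherwise) under the replicate block, and 1 with antibiotics against BA (2 otherwise) with all 5 day-30 groups in 1 fit. Leaving out 1 library gave 2 to 6 genes in Apcfl/fl tissue (4), 1 to 5 in BA tumours, 3 to 6 with antibiotics against WT and 1 to 4 against BA. The cause was not tested.

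Values that turned direction were not called in either setting. They were -0.087 for Bmpr1a in Apcfl/+ tumours under the block, -0.105 (voom) and -0.118 (block) for Grem1 with antibiotics against WT, -0.027 and -0.023 for Bmp2 and 0.030 and 0.029 for Grem1 under voom and the block with sulindac against none. For the differences of effects they were -0.026 for Bmpr1a (tumours) and -0.059 for Bmp4 (BA tumours and day 30) with no low-count filter, and -0.130 for Id2 in the latter with voom. With 1 library left out, log2 ranges crossed 0 as follows. For Apcfl/+ tumours against WT the range was Bmpr1a -0.042 to 0.130. For BA tumours against WT the range was Bmp7 -0.094 to 0.240. For A mice against WT the range was Bmpr2 -0.333 to 0.009. For BA with antibiotics against WT the range was Grem1 -0.219 to 0.324. For the same against BA the range was Bmp4 -0.001 to 0.143. For A with sulindac against WT the range was Bmp4 -0.119 to 0.021, Bmpr1a -0.131 to 0.022. For sulindac against none the range was Bmp2 -0.244 to 0.248, Bmp7 -0.135 to 0.103, Grem1 -0.327 to 0.324, Smad6 -0.187 to 0.085, Id1 -0.285 to 0.176. For BA against A the range was Id1 -0.011 to 0.436. For the difference of the tumour effects the range was Bmpr1a -0.031 to 0.153. For the difference between BA tumours and day 30 the range was Bmp2 -0.036 to 0.435, Bmp4 -0.077 to 0.279, Id2 -0.245 to 0.393, Id3 -0.263 to 0.015.

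No comparison had every correlation of same-numbered deviations over 0.1 (-0.442 to 0.226 in all), and 0 to 2 libraries per comparison were nearest to their own number. These values do not settle whether replicate numbers follow mice handled together. At day 4 Gm13394 was low in the lower-numbered replicates of both groups and high in the rest, as given above. With the block, calls went from 4 to 5 in Apcfl/fl tissue, 3 to 1 in BA tumours, 10 to 8 in BA mice at day 30, 5 to 3 with antibiotics against WT and 9 to 7 for BA against A, and stayed at 8 in Apcfl/+ tumours. Under the block Bmp4 lost its call in Apcfl/fl tissue (-0.50, adjusted p = 0.0644). With 516985 reads, Apcfl/fl replicate 1 limits Bmp2, Bmp4 and Grem1 there.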
